A study of Mus musculus with 23 samples.

Results

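The AP-1 subunit genes Jun, Junb, Jund, Fos, Fosb, Fosl1 and Fosl2, together with the growth and early-response genes Myc, Egr1 and Ier3, were followed through a furan dose series in mouse liver. They were taken as a fixed list of 10 symbols out of 37163 genes, with and without a symbol, that had a usable probe, and every probe matched to one of them was read. At 8 mg/kg, 4 of the 9 members that could be tested were higher than in controls and 0 were lower. Of all 19899 genes tested, 4.23% were called higher and 3.76% lower. The member count was 2 (Jun and Fosl2) without control replicate 1, without replicate 1 at 8 mg/kg, or with no filter on dim probes. Jun rose 4.72-fold, Myc 2.70-fold, Fosl2 1.97-fold and Jund 1.37-fold. Junb, Fosb, Fosl1, Egr1 and Ier3 did not pass the test, and the Fos signal was too close to background to be tested.

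AP-1 is a dimer of basic leucine zipper proteins. Jun proteins pair with each other or with Fos proteins and bind the TGANTCA element, while pairing with ATF proteins shifts binding to the cyclic AMP response element TGACNTCA. Most of these genes are transcribed within minutes of a growth factor or stress signal and their messages decay quickly, and in liver Jun, Fos and Myc are known for their early induction after partial hepatectomy. Myc encodes a helix-loop-helix protein that pairs with Max and drives ribosome production and growth. Egr1 encodes a zinc finger factor of the same early response. Ier3 is induced alongside them but encodes a small stress-response protein, not a transcription factor.

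The animals were female B6C3F1 mice, a hybrid strain, bought at 5 to 6 weeks of age. Furan is a volatile compound formed in heated food that the liver oxidises to a reactive dialdehyde. It was given in corn oil by gavage for 21 days at 1 mg/kg (4 animals), 2 mg/kg (5), 4 mg/kg (4) or 8 mg/kg (5), and 5 control animals received corn oil alone. Livers were taken 4 h after the final dose, so each value is a level at a single time point after repeated dosing. Liver RNA was labelled with Cy5 and hybridised against a common mouse reference RNA in Cy3, with no dye swap. A value is the log2 ratio of liver to reference RNA, so a negative value means less of that message in liver than in the reference mixture, and the ratios of different genes are not levels that can be ranked.

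The number of probes well above background ran from 22010 to 30114 per array, and the median correlation between arrays of 1 group was 0.976. Of 12 hepatocyte markers 10 were measured, each well above background on all 23 arrays, with log2 ratios from 4.24 to 10.27. Pancreatic enzyme messages were high on 4 arrays. Over the 5 measured of 14 pancreas markers, the mean log2 excess over controls was 3.59 for 2 mg/kg replicate 1, 3.68 for 2 mg/kg replicate 5, 3.79 for 4 mg/kg replicate 1 and 2.82 for 8 mg/kg replicate 5. For 2 mg/kg replicate 4 the same excess over 5 of 10 neutrophil markers was 2.20. There were 5 slides, and controls were missing from slide 2, the 4 mg/kg dose from slide 3 and the 1 mg/kg dose from slide 5.

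Promoter windows from 250 bases before to 50 bases after the start were found for 7 of the 10 members in RefSeq (GRCm38.p6), and those of Jun and Fosl2 are shown because these were the members with the smallest p at 8 mg/kg, beside Fos, whose level in these livers was near background. Capitals mark matches, on either strand, to the searched motifs: TGANTCA (AP-1), TGACNTCA (cyclic AMP response element-like), TTACCTCA (the second AP-1 element known from Jun promoters), the CArG box of serum response factor, CACGTG (E-box), GCGNGGGCG (EGR) and CCAAT.
Jun: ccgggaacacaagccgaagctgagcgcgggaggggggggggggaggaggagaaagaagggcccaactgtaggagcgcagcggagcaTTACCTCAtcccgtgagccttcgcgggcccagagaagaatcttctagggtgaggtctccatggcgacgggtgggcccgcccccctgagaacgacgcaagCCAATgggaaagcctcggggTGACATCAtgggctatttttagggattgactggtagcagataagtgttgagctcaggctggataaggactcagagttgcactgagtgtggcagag
Fosl2: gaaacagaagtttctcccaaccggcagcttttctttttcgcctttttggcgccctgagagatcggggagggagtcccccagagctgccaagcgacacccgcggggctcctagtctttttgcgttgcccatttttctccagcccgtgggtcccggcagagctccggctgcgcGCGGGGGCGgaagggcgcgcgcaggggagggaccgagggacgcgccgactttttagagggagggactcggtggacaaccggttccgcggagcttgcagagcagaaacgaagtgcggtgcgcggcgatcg
Fos: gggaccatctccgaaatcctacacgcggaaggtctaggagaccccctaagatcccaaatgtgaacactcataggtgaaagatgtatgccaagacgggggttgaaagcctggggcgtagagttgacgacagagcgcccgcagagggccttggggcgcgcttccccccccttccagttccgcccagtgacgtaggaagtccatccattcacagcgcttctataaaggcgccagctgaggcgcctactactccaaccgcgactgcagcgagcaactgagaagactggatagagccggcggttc

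The Jun window lies at chr4:95052173-95052472 on the minus strand, the Fosl2 window at chr5:32136222-32136521 and the Fos window at chr12:85473640-85473939, both on the plus strand. The Jun window held TGACATCA at -45 to -38 and TTACCTCA at -164 to -157 from the annotated start, as well as CCAAT at -65 to -61. Of 32851 promoter windows of the same length, 8.83% held TGACNTCA and 0.889% held TTACCTCA. The Fosl2 window held 1 EGR match at -79 to -71, and so did the Fosb window at -50 to -42, against 5.55% of all windows. The Junb window held 1 CCAAT and the Ier3 window 2, a motif found in 37.4% of all windows. None of the 7 windows held TGANTCA (7.81% of all windows), a CArG box (1.63%) or CACGTG (7.15%), and the Jund and Fos windows held none of the 7 motifs, which says only that these letters are not in these 300 bases.

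**Figure D1:**
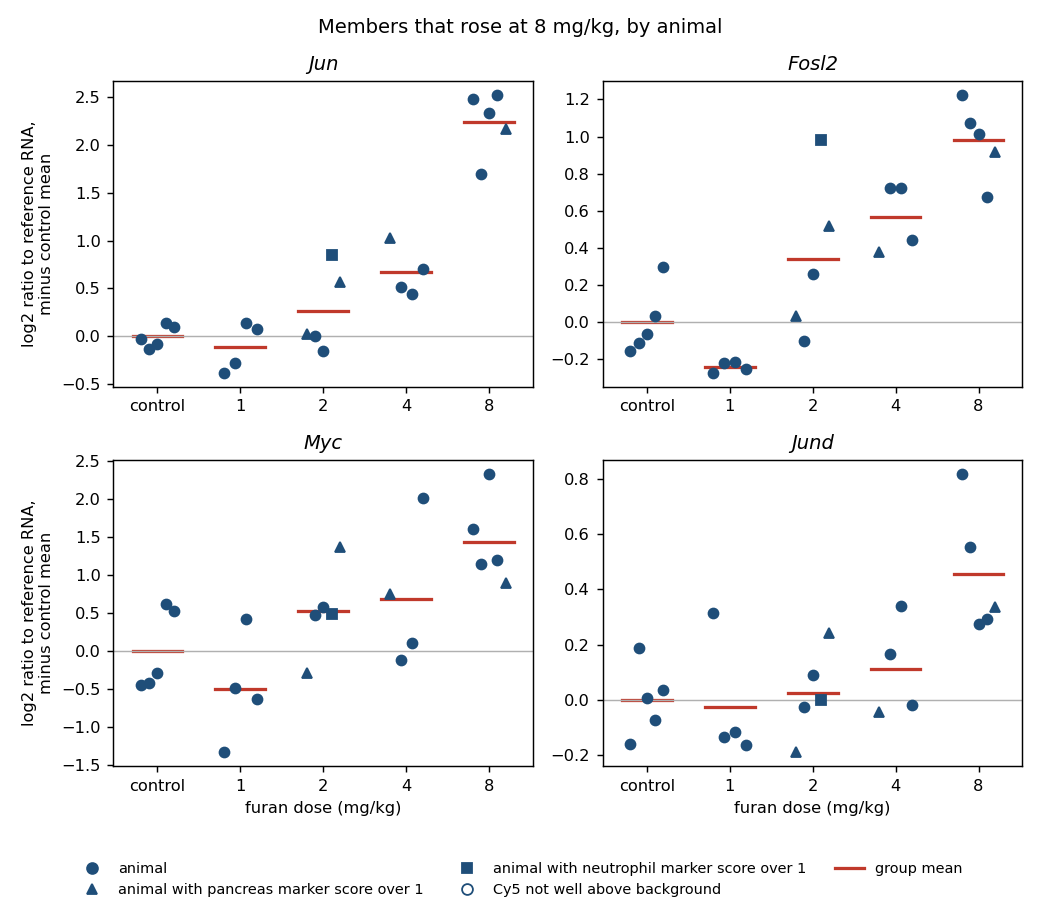
Log2 ratio of Jun, Fosl2, Myc and Jund in each animal minus the control mean (vertical axis, log2, scaled per gene) by furan dose in mg/kg, with the group mean as a red bar and other markers for arrays with a pancreas or neutrophil marker score over 1. In each panel all 5 animals at 8 mg/kg lie above all 5 controls, and the groups at 1 and 2 mg/kg overlap the controls except for Fosl2 at 1 mg/kg, which lies below them.

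Jun, the transactivating partner that most AP-1 dimers share, rose at 8 mg/kg. Its log2 ratios were -1.55, -2.34, -1.70, -1.51 and -1.87 at 8 mg/kg, against -4.06, -4.17, -4.11, -3.90 and -3.93 in controls. The groups did not overlap, and the lowest animal at 8 mg/kg lay 1.70 above the control mean. The processed Cy5 signal itself was 7390 to 10759 at 8 mg/kg and 1421 to 2630 in controls. The difference was 2.24 ± 0.18 (standard error), a 4.72-fold rise with a 95% interval of 1.85 to 2.62 on the log2 scale (limma adjusted p = 4.42e-07 over 19899 genes). By p this was rank 4 of all genes tested, and by size of rise rank 26. In bulk liver a change in the number of cells of a type and a change in RNA per cell cannot be told apart.

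Below the top dose Jun differed less. Its log2 ratios were -3.00, -3.52, -3.59 and -3.33 at 4 mg/kg, and all 4 animals lay above all 5 controls. The 4 mg/kg difference was 0.67 ± 0.20 and did not pass the test over all genes (limma adjusted p = 0.220), where only 0.0804% of genes passed in either direction. At 1 mg/kg the ratios were -4.41, -4.31, -3.89 and -3.95, and at 2 mg/kg -4.00, -4.03, -4.19, -3.19 and -3.46. At 2 mg/kg, 2 of the 5 animals lay above every control, replicate 4 (the array high in neutrophil markers) and replicate 5 (high in pancreas markers), and whether these markers bear on the Jun values was not tested. Between 8 and 4 mg/kg Jun again differed, by 1.57 ± 0.20 (2.96-fold, limma adjusted p = 0.00100), and it was the 1 member to pass in that comparison, where 0.206% of all genes passed. The step between 4 and 2 mg/kg was 0.41 ± 0.20 (limma adjusted p = 0.952) and that between 2 and 1 mg/kg 0.37 ± 0.20 (0.711).

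Jund, a Jun protein usually present in resting cells, rose by a smaller amount. At 8 mg/kg the log2 ratios were -0.17, -0.43, -0.71, -0.69 and -0.65, against -1.14, -0.79, -0.98, -1.05 and -0.95 in controls. Every animal at 8 mg/kg lay above every control, although the nearest animals of the groups, at -0.71 and -0.79, were close. The difference was 0.46 ± 0.12 (1.37-fold, limma adjusted p = 0.0216). Without replicate 1 at 8 mg/kg, the highest animal, it was 0.36 (limma adjusted p = 0.0604), without replicate 2 at 8 mg/kg 0.43 (0.0523) and without control replicate 1 0.41 (0.0578). At 1, 2 and 4 mg/kg the differences were -0.03, 0.02 and 0.11, each with a 95% interval that spans 0.

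Junb, which dimerises like Jun but transactivates more weakly, showed no difference that passed. Junb log2 ratios were -1.0, -1.72, -2.24, -1.76 and -1.44 at 8 mg/kg, against -1.13, -1.67, -1.57, -1.60 and -1.88 in controls. The 8 mg/kg animals lay on both sides of the controls, and the difference was -0.06 with a 95% interval of -0.62 to 0.50 (limma adjusted p = 0.941). That interval does not reach the Jun difference. Without slide 3 the Junb difference was 0.06 (limma adjusted p = 0.941).

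Among the Fos-type partners, which cannot pair with each other and need a Jun protein, Fosl2 rose. Fosl2 encodes Fra-2, a Fos-related protein without the strong activation domain of Fos. Fosl2 log2 ratios were -3.08, -3.23, -3.29, -3.63 and -3.39 at 8 mg/kg, against -4.46, -4.42, -4.37, -4.27 and -4.01 in controls. The groups did not overlap, and the difference was 0.98 ± 0.16 (1.97-fold, 95% interval 0.66 to 1.31, limma adjusted p = 5.20e-04). The processed Cy5 signal was 383 to 871 at 8 mg/kg and 215 to 450 in controls, well above background on all 23 arrays but far dimmer than Jun's spot. With median signals, either corrected by normexp or uncorrected, or with the deposited table the difference was smaller, 0.58 to 0.61, as given with the other settings.

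The 4 mg/kg animals had Fosl2 ratios of -3.93, -3.58, -3.58 and -3.86, all above the 5 controls, with a difference of 0.57 ± 0.16 that did not pass (limma adjusted p = 0.222). Jun and Fosl2 were the 2 of 9 members whose 4 mg/kg animals all exceeded the controls, against 1.51% of all genes tested. At 2 mg/kg the ratios were -4.27, -4.40, -4.04, -3.32 and -3.78, and replicates 4 and 5 were again the high ones. At 1 mg/kg they were -4.58, -4.52, -4.52 and -4.56, a narrow set lying below all 5 controls, with a difference of -0.24 ± 0.16 that did not pass (limma adjusted p = 0.999). All-below separation at 1 mg/kg occurred for 0.854% of genes. Without the array high in neutrophil markers, which shares in the estimate of spread, the 4 mg/kg difference of Fosl2 had an adjusted p of 0.0824 and that of Jun 0.141. A second Fosl2 probe was well above background on 1 of 23 arrays and was not used.

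Fosl1, which encodes Fra-1, and Fosb did not pass. Fosl1 ratios were -4.56, -3.60, -4.89, -3.85 and -4.87 at 8 mg/kg, against -4.17, -4.37, -3.75, -5.58 and -4.13 in controls. The ranges overlap, and the difference was 0.04 with a wide 95% interval of -0.77 to 0.85 (limma adjusted p = 0.977). The difference of Fosl1 is below 0 under the median-signal, deposited-table and slide-block settings. Fosb ratios were -2.79, -3.04, -3.20, -2.68 and -3.58 at 8 mg/kg, against -2.89, -2.58, -2.50, -3.47 and -2.81 in controls. The Fosb groups overlapped, with a difference of -0.21 and an interval of -0.64 to 0.23 (limma adjusted p = 0.652).

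**Figure D2:**
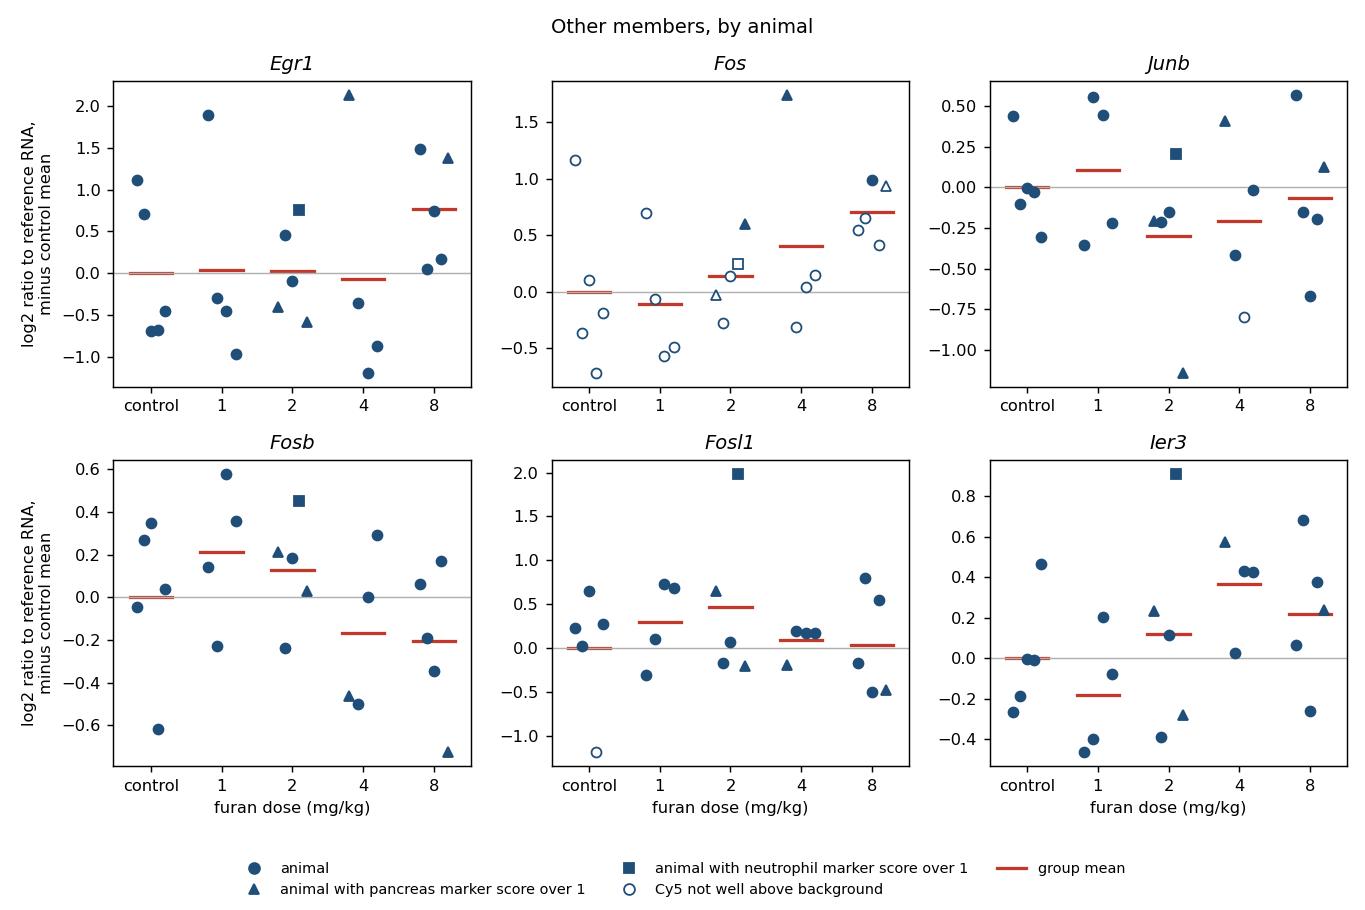
Log2 ratio of Egr1, Fos, Junb, Fosb, Fosl1 and Ier3 in each animal minus the control mean (vertical axis, log2, scaled per gene) by furan dose in mg/kg, with the group mean as a red bar and open markers where Cy5 was not well above background. In every panel the 8 mg/kg animals overlap the controls, for Fos through 1 control above them all, and 3 of the 23 Fos points are filled.

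Fos, the gene of the first-known Fos protein and a textbook marker of recent stimulation, was at the edge of detection 4 h after dosing. Its probe, printed 10 times on each array, was well above background on 3 of 23 arrays, 1 each at 2, 4 and 8 mg/kg and 0 of 5 controls, and so failed the filter. Those at 2 mg/kg (replicate 5) and 4 mg/kg (replicate 1) were high in pancreas markers, with scores of 3.68 and 3.79. The array at 8 mg/kg, replicate 3, was not (-0.16). Fos log2 ratios were -6.79, -6.68, -6.35, -6.93 and -6.40 at 8 mg/kg, against -6.17, -7.70, -7.23, -8.05 and -7.53 in controls. Control replicate 1 lay above all 5 animals at 8 mg/kg, and the other 4 controls lay below them. Measured against the dimmest signals that counted as above background, no fold over control could be stated. The highest Fos value of all, -5.59, was in replicate 1 at 4 mg/kg, which is also the array highest in pancreas markers, and the part of that tissue in the value was not tested.

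Myc rose at 8 mg/kg with a wide spread between animals. Its log2 ratios were -2.44, -2.89, -1.71, -2.84 and -3.14 at 8 mg/kg, against -4.49, -4.45, -4.33, -3.42 and -3.51 in controls. The groups did not overlap, but control replicates 4 and 5 stood well above the other 3 controls. The difference was 1.43 ± 0.40 (2.70-fold, 95% interval 0.60 to 2.27, limma adjusted p = 0.0303). The call is sensitive to single arrays: 5 of the 10 fits that each left out 1 animal (control replicates 1, 2 and 3, and replicates 1 and 3 of the 8 mg/kg group) gave differences of 1.21 to 1.39 with limma adjusted p of 0.0599 to 0.0890. Leaving out slide 3, which holds the highest animal, gave 1.11 (limma adjusted p = 0.122).

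At 4 mg/kg the Myc ratios were -3.28, -4.16, -3.93 and -2.02, with replicate 4 above 4 of the 5 animals at 8 mg/kg and replicates 2 and 3 within the control range. The difference was 0.69 ± 0.42 (limma adjusted p = 0.691). At 2 mg/kg they were -4.32, -3.56, -3.46, -3.55 and -2.67, a difference of 0.53 ± 0.40 (0.767). At 1 mg/kg they were -5.37, -4.52, -3.62 and -4.67, a difference of -0.50 ± 0.42 (0.999). The difference between 2 and 1 mg/kg was 1.03 ± 0.42 and did not pass (limma adjusted p = 0.660), with 4 of 5 animals at 2 mg/kg above all 4 at 1 mg/kg.

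Egr1 did not pass at any dose, and its standard error of 0.59 was the largest of the 9 tested members. Egr1 log2 ratios were -2.32, -3.75, -3.06, -3.63 and -2.43 at 8 mg/kg, against -2.68, -3.10, -4.49, -4.49 and -4.25 in controls. The groups overlapped, and the difference of 0.76 had a 95% interval of -0.46 to 1.99 (limma adjusted p = 0.523). The 2 highest Egr1 values of all 23 animals were -1.91 for 1 mg/kg replicate 1, whose group mates lay at -4.77 to -4.10, and -1.67 for 4 mg/kg replicate 1, whose group mates lay at -4.99 to -4.16. The array of that 4 mg/kg animal was the highest in pancreas markers (score 3.79). The 4 mg/kg difference of Egr1 was -0.07, and -0.81 without the 4 arrays high in pancreas markers (limma adjusted p = 0.987 and 0.815). Within a group the SD ran up to 1.51 at 4 mg/kg and 1.27 at 1 mg/kg, against 0.85 in controls.

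Ier3 ratios were -4.49, -3.88, -4.82, -4.18 and -4.32 at 8 mg/kg, against -4.82, -4.74, -4.56, -4.56 and -4.09 in controls. The groups overlapped, and the difference was 0.22 with an interval of -0.23 to 0.67 (limma adjusted p = 0.642). The highest Ier3 value, -3.65, was in replicate 4 at 2 mg/kg, the array high in neutrophil markers, and the same array held the highest Fosl1 value of the series, -2.42. Whether neutrophil RNA bears on these values was not tested.

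**Figure D3:**
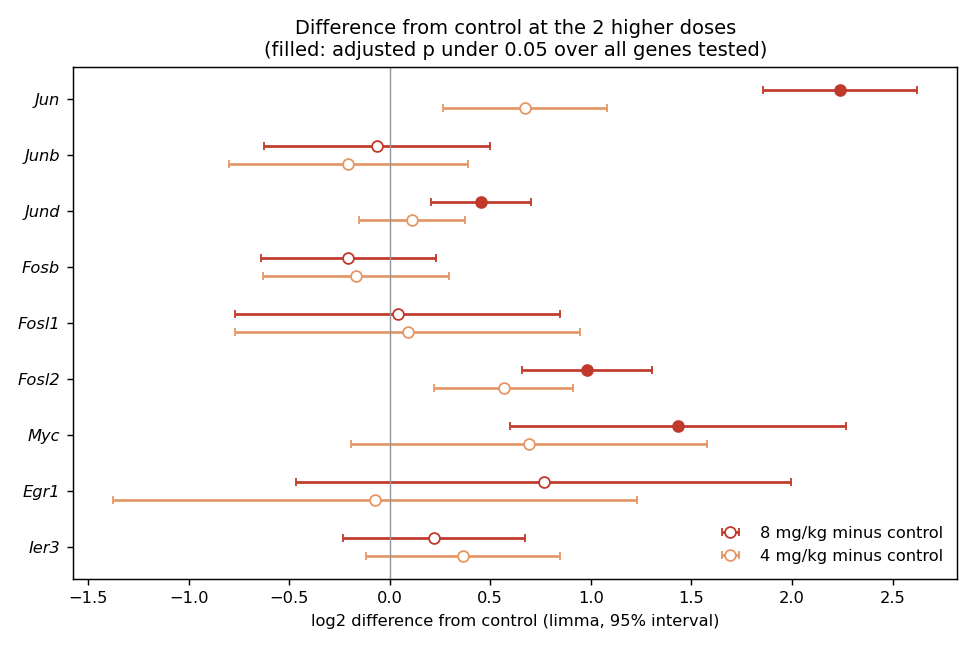
Log2 difference from control (horizontal axis) with its 95% interval for the 9 tested members at 8 mg/kg (dark red, upper of each pair) and 4 mg/kg (orange, lower), filled where the limma adjusted p over all genes was under 0.05. Jun, Fosl2, Myc and Jund are filled at 8 mg/kg and no member is filled at 4 mg/kg.

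Set against all genes, 4 of 9 tested members rose at 8 mg/kg, where 4.23% of the 19899 genes were called higher and 3.76% lower. The same 4 members were those whose 8 mg/kg animals all lay above all controls, a pattern found for 4.44% of genes. The median difference of the 9 members was 0.46, beside -0.03 for all genes tested. At 4 mg/kg 0 of 9 passed and the median was 0.11, beside -0.02 for all genes. At 2 mg/kg 0 of 9 passed, where 0.0101% of genes did, and at 1 mg/kg 0 of 9 passed, as did 0 genes in all (0%). These comparisons share the same 5 controls. In the same limma fit the members with an unadjusted p under 0.05 were Jun and Fosl2 at 4 mg/kg (0.00255 and 0.00259, beside 8.90% of all genes), Fosl2 at 2 mg/kg (0.0415, beside 8.67%) and 0 members at 1 mg/kg (beside 3.52%). Neither the step between 4 and 2 mg/kg nor that between 2 and 1 mg/kg had a member past the test, and 0% of genes passed in either. Their members with an unadjusted p under 0.05 were Jun in the upper step (0.0479, beside 4.81% of all genes) and Fosl2 and Myc in the lower (0.00216 and 0.0250, beside 7.38%).

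A straight-line slope on dose passed for the same 4 members, where 10.4% of genes passed in either direction and 5.32% upward. The slope was 0.30 ± 0.02 log2 units per mg/kg for Jun (limma adjusted p = 3.53e-08), 0.14 ± 0.02 for Fosl2 (7.53e-05), 0.20 ± 0.05 for Myc (0.00607) and 0.06 ± 0.01 for Jund (0.00368). The moderated F test over the 4 doses, which assumes no line, passed for Jun (limma adjusted p = 1.34e-06) and Fosl2 (8.01e-04) but not for Myc (0.0606) or Jund (0.0861), where 3.14% of genes passed. Jun's mean differences from control were -0.11, 0.26, 0.67 and 2.24 at 1, 2, 4 and 8 mg/kg, so most of its rise fell between the 2 highest doses. Fosl2's were -0.24, 0.34, 0.57 and 0.98, below control at 1 mg/kg and above it at the other doses. The Fosl2 steps were 0.58 between 1 and 2 mg/kg, 0.23 between 2 and 4 mg/kg and 0.41 between 4 and 8 mg/kg. Without the array high in neutrophil markers the 2 mg/kg difference of Fosl2 was 0.18.

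Within the 4 slides that held both a control and an 8 mg/kg animal, Jun was 2.02 to 2.60 higher, Fosl2 0.74 to 1.15, Myc 0.27 to 2.74 and Jund 0.09 to 0.88, each higher on 4 of 4 slides. Egr1 was also higher on 4 of 4 slides, by 0.04 to 2.06. Slide 3 gave the smallest difference for Jund and Egr1 and the largest for Myc. At 4 mg/kg Jun was 0.41 to 0.89 higher, Fosl2 0.34 to 0.65, Ier3 0.33 to 0.58 and Myc 0.07 to 2.31, each on 3 of 3 slides. Each slide difference set 1 treated animal against 1 or 2 controls. The share of all genes that were higher on every slide was not computed, so these counts are a description only. Egr1 and Ier3 passed the limma test at no dose. Over all genes, arrays of different groups on the same slide deviated together (41 pairs, r from 0.0324 to 0.497, median 0.224).

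Because the 8 mg/kg animals stand apart from all others in Jun, pairs with Jun were compared over the 18 animals below that dose, a choice made after seeing the data. There were 45 pairs of members, each with a permutation p from 100000 resamples and Benjamini-Hochberg adjustment over the 45. The permutations, here and over all 23 animals, moved animals freely across dose groups and slides. Such a p therefore does not separate animal-to-animal variation from a shared dose or slide shift. The r within dose groups and within slides carry no p. Jun and Fosl2 went together below the top dose (Pearson r = 0.786, permutation adjusted p = 0.00630, Spearman rho = 0.746, permutation adjusted p = 0.0261). The r was 0.787 without the 2 animals farthest from the Jun median, 0.542 after the dose group means were removed and 0.835 within slides. Those 2 animals were 4 mg/kg replicate 1, the array highest in pancreas markers, and 2 mg/kg replicate 4, the array high in neutrophil markers. Whether these markers bear on the correlations was not tested. Ier3 did not pass at any dose, and Jun and Ier3 had r = 0.708 (permutation adjusted p = 0.0120, rho = 0.668, permutation adjusted p = 0.0324). Their r was 0.519 without the 2 farthest animals, 0.587 within dose groups and 0.745 within slides. Over all 23 animals Jun and Ier3 had r = 0.352 (permutation adjusted p = 0.318) and rho = 0.550 (permutation adjusted p = 0.0429). Jun and Myc had r = 0.660 (permutation adjusted p = 0.0184, rho = 0.678, permutation adjusted p = 0.0324), 0.726 without the 2 farthest animals, 0.492 within dose groups and 0.655 within slides. Jun and Jund had r = 0.06 (permutation adjusted p = 0.930, rho = 0.02), so no joint variation of these was detected below 8 mg/kg. Over the same 18 animals Junb and Jund, a pair without Jun, ran opposite ways (r = -0.703, permutation adjusted p = 0.0120, rho = -0.604, permutation adjusted p = 0.0617). Their r was -0.644 without the 2 animals farthest from the Junb median, -0.714 within dose groups and -0.560 within slides. Over all 23 animals it was -0.193 (permutation adjusted p = 0.639, rho = -0.287, permutation adjusted p = 0.379), so the pair did not pass in the full series.

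**Figure D4:**
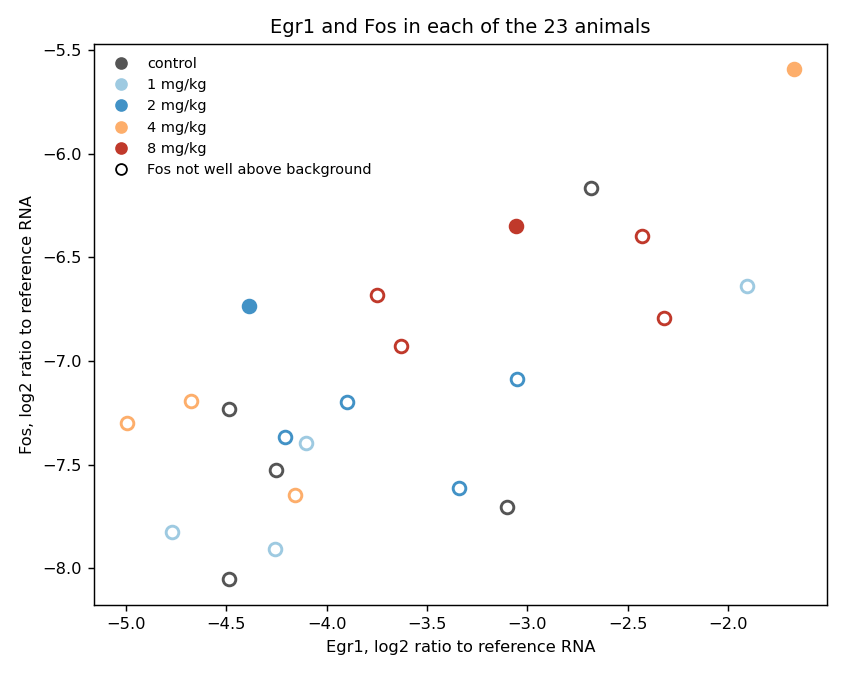
Fos log2 ratio (vertical axis) against Egr1 log2 ratio (horizontal axis) in each of the 23 animals, coloured by dose, with open circles where Fos was not well above background. The animals run from low in both genes to high in both, with the 4 mg/kg animal highest in pancreas markers at the top right (-1.67 and -5.59) and controls at both ends.

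Egr1 and Fos went together across all 23 animals, also within dose groups. Their pooled r was 0.704 (permutation p = 0.00027, adjusted 0.00202, Spearman rho = 0.627, permutation adjusted p = 0.0144), 0.573 without the 2 animals farthest from the Fos median, 0.700 within dose groups and 0.680 within slides. All but 3 of the Fos values lie below the level called well above background, so the r rests on dim spots. Over the 18 animals below 8 mg/kg r was 0.683 (permutation adjusted p = 0.0184) but rho was 0.443 (permutation adjusted p = 0.298), and r was 0.375 without the 2 farthest animals there, so the relation rests in part on single animals. Fosb and Fosl1, neither of which rose, had r = 0.665 over the 23 animals (permutation adjusted p = 0.00202, rho = 0.619, permutation adjusted p = 0.0153), 0.544 without the 2 animals farthest from the Fosb median, 0.666 within dose groups and 0.453 within slides. Both spots were dim, with processed Cy5 signals of 60.4 to 406 for Fosl1 and 214 to 867 for Fosb. Fosl1 was well above background on 22 of 23 arrays.

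The genes whose ratios ran most like Jun over the 23 arrays, as a description with no test, were Tnfrsf12a (r = 0.951), the gene of the TWEAK receptor, Plekha1 (0.938), Adamts1 (0.935), which encodes a secreted protease, Cdkn1a (0.928), the gene of the cell cycle inhibitor p21, and Rassf1 (0.927). Because the choice used the 8 mg/kg arrays, which stand apart in Jun, their 8 mg/kg differences from control (1.36, 0.55, 1.12, 2.79 and 0.80 in the same order) follow from it and are given as values only. Those most like Myc were Pds5b (0.840), which encodes a cohesin regulator, Abhd17b (0.834), Cul3 (0.834), Ep300 (0.830), the gene of an acetyltransferase, and Ankrd13b (0.823).

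**Figure D5:**
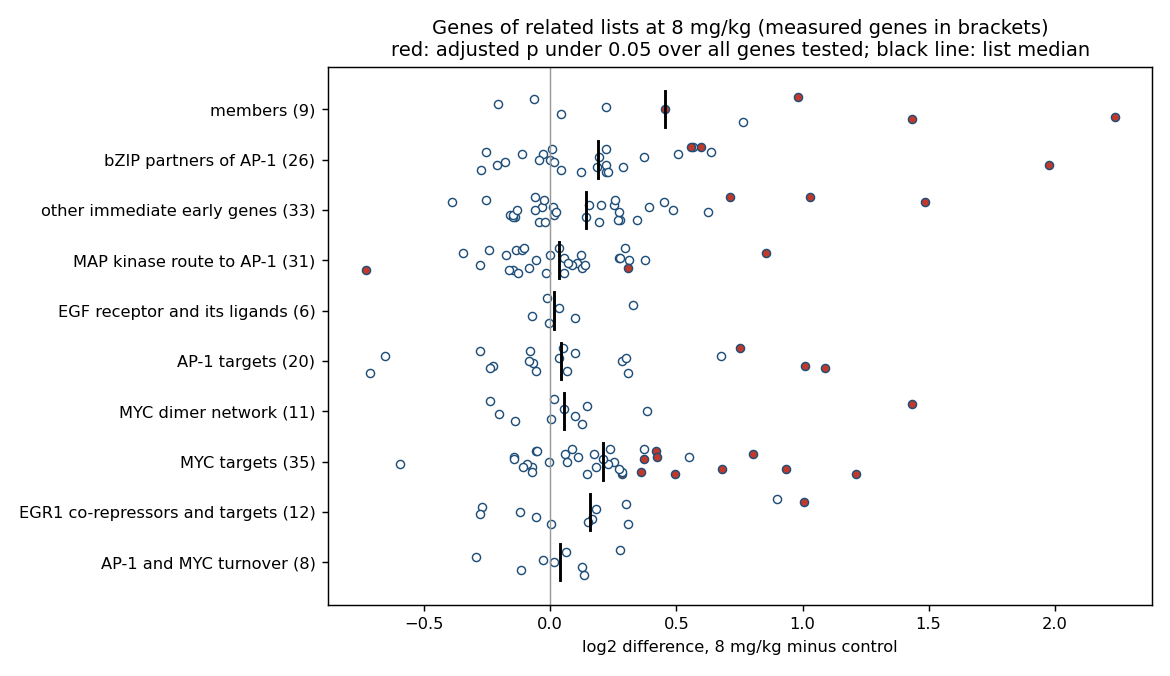
Log2 difference between 8 mg/kg and control (horizontal axis) for each measured gene of the member list and 9 related lists, in red where the limma adjusted p over all genes was under 0.05, with the list median as a black line and the number of measured genes in brackets. Red points lie right of 0 except for Map2k6, and most points of every related list are open.

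Among basic leucine zipper partners that pair with Jun or Fos proteins, 3 of 26 measured genes rose at 8 mg/kg and 0 fell, where 4.23% of all genes rose and 3.76% fell. The list median was 0.19, beside -0.03 for all genes. Atf3, a stress-induced repressor that dimerises with Jun, rose by 1.98 ± 0.19 (limma adjusted p = 2.50e-06), close in size to Jun. Atf3 also differed between 8 and 4 mg/kg, by 1.31 ± 0.20 (limma adjusted p = 0.00497), and its 4 mg/kg difference was 0.67 ± 0.20 (0.246). Atf4, the effector of the integrated stress response, rose by 0.60 ± 0.10 and Nfe2l2, which encodes NRF2, by 0.56 ± 0.12. At 4 mg/kg 0 of 26 passed.

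Of the other immediate early genes, 3 of 33 measured rose and 0 fell, beside 4.23% and 3.76% of all genes, and the median was 0.14. Dusp6, which encodes the phosphatase that switches off ERK, rose by 1.49 ± 0.23 (limma adjusted p = 4.96e-04), and the 5 animals at 8 mg/kg had an SD of only 0.11. It differed between 8 and 4 mg/kg by 1.24 ± 0.25 (limma adjusted p = 0.0400). The kinase gene Plk2 rose by 1.03 ± 0.25 and the antiproliferative gene Btg2 by 0.71 ± 0.15. The remaining 30 genes of that list did not pass.

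In the MAP kinase route to AP-1, 2 of 31 measured genes rose and 1 fell, near the 4.23% and 3.76% of all genes, with a median of 0.03 beside -0.03 for all genes. Map2k7, which encodes the JNK kinase MKK7, rose by 0.85 ± 0.19 (limma adjusted p = 0.00733). Its mean differences were 0.57, 0.38, 0.89 and 0.85 at 1, 2, 4 and 8 mg/kg, an order that does not follow dose. Map2k6, which encodes the p38 kinase MKK6, fell by 0.73 ± 0.17 (the fitted difference was -0.73, limma adjusted p = 0.00891). Of the EGF receptor and its ligands 0 of 6 measured genes passed, and the median was 0.01.

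Of the AP-1 targets 3 of 20 measured rose and 0 fell, beside 4.23% and 3.76% of all genes, with a median of 0.04. They were Hmox1 (1.09 ± 0.25), Nqo1 (1.01 ± 0.16) and Gclc (0.75 ± 0.15), genes of haem breakdown, quinone reduction and glutathione synthesis that are also textbook NRF2 targets. The cyclin gene Ccnd1 did not pass (0.68 ± 0.27, limma adjusted p = 0.139). Of the list's matrix protease genes only Mmp2 (-0.07) and Mmp14 (0.10) were measured, and they did not pass. Its measured adhesion genes did not pass either.

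Of the MYC targets 10 of 35 measured rose and 0 fell, beside 4.23% and 3.76% of all genes. The list median was 0.21, beside -0.03 for all genes, and 25 of 35 differences were above 0, beside 44.8% of all genes. The transferrin receptor gene Tfrc rose by 1.21 ± 0.21, Rrp12 by 0.94 ± 0.17, Nop58 by 0.80 ± 0.11, the helicase gene Ddx21 by 0.68 ± 0.12, and Wdr43 by 0.42 ± 0.09. The last 4 act in ribosome production, but other genes of that role in the list did not pass, among them, chosen after their values were seen, Fbl (0.06), Npm1 (-0.09) and Pes1 (-0.11). Odc1, the first enzyme of polyamine synthesis, rose by 0.49 ± 0.10 (limma adjusted p = 0.00419). Within the dimer network of Max and its partners, 1 of 11 measured genes passed, Myc itself. Of the genes for EGR1 co-repressors and targets 1 of 12 measured rose, beside 4.23% of all genes. It was the growth factor gene Pdgfa (1.01 ± 0.12, limma adjusted p = 1.94e-05). As for the others, 0 of 8 genes for AP-1 and MYC protein turnover passed. Related lists had 0 genes past the test at 4 mg/kg.

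Of markers of other cell types, those of endothelium held the 2 that passed at 8 mg/kg. Of 10 endothelial markers 2 were lower and 0 higher, beside 3.76% and 4.23% of all genes. They were Eng (-0.47, limma adjusted p = 0.0457) and Clec14a (-0.48, limma adjusted p = 0.0495), both close to the threshold of 0.05. The mean score over the list had a range of -0.61 to 0.05 in the 8 mg/kg group and of -0.19 to 0.30 in the control group. None of the measured markers of hepatocytes (10), neutrophils (5), Kupffer cells and macrophages (11), T and NK cells (6), B and plasma cells (4), stellate cells and fibroblasts (10), cholangiocytes (4), erythrocytes (3) or pancreas (5) passed. The neutrophil score ran from -0.57 to 0.31 at 8 mg/kg and from -0.16 to 0.28 in controls. Without the 4 arrays high in pancreas markers the 8 mg/kg differences were 2.26 for Jun, 1.00 for Fosl2, 1.57 for Myc and 0.48 for Jund, and all 4 still passed. The part of endothelial cells in these results was not tested.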

How the data were processed

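SurePrint G3 arrays carried liver RNA in Cy5 against reference RNA in Cy3, per the labels. The series text counts 25 samples, and the 23 given here were analysed. Per the file headers, Agilent Feature Extraction 10.7.3.1 wrote the deposited scanner files, 62976 spots per array. Their processed signals are intensity values that the software had, per the file headers, corrected for background and dye bias, and the other columns used are median signals with local background and 0 or 1 marks per spot. The deposited value table holds 1 ratio of Cy5 to Cy3 per probe, with column medians of 0.974 to 0.987, and is taken as linear and not centred by gene. On the log2 scale r was 0.995 to 0.996 with loess-normalised uncorrected median signals and 0.881 to 0.915 with the values used here.

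From the processed signals, log2 of Cy5 over Cy3 was normalised by loess within each array (span 0.3, 4 iterations, control and marked spots at weight 0, then removed), and spots of a probe were averaged. Probes well above background in Cy5 on at least 4 arrays of 1 group were kept, 25576 of 55681. Systematic names were matched to RefSeq symbols of GRCm38.p6 (26413 probes, 20018 symbols). The brightest kept probe stood for a gene, which left 19899 genes, 12927 with a symbol. The comparisons used limma 3.58.1 (R 4.3.3) over all 23 arrays with group as the term, two-sided, with Benjamini-Hochberg adjustment over all genes tested and a threshold of 0.05 (18 residual and 2.32 prior degrees of freedom). The code was tested on simulated data. A marker score is the mean of a list's measured log2 ratios minus the control mean. Permutation tests used Python 3.11.15 with numpy 2.4.6.

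The members and lists were chosen with earlier results of these data known. Named genes are all members, up to 6 genes per list and contrast past the threshold by size, Atf3, Ccnd1, and the 5 most correlated genes with a symbol for Jun and for Myc. A gene of the MAP kinase list that this rule names is not reported here. The labels call the animals biological replicates. Replicate numbers recur in each group, but do not pair the animals: deviations of same-numbered arrays had r from -0.243 to 0.403 (43 pairs, median 0.025), against -0.294 to 0.497 for other numbers (168 pairs, median -0.041), so the fit with the number as a block is an alternative. Arrays on the same slide deviated together (41 pairs, median 0.224). The comparisons carry no slide term, and slide as a block is an alternative. Other alternatives changed the background correction, normalisation, filter, probe rule, slide block, variance model and arrays used. The number of arrays limits the precision.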

Additional observations from a re-analysis of the deposited data

Results flagged for a closer look

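Each of the 10 members was screened in 5 groups for an animal standing apart from its group, 50 groups in all, and 2 had one. About 1 in 20 groups would be picked out by chance. Fosl1 in replicate 1 at 4 mg/kg was the lowest of its group at -4.58, with the nearest animal at -4.23, in a group whose other 3 animals were close together. Jund in replicate 1 at 1 mg/kg was the highest of its group at -0.67, with the nearest at -1.10, a level inside the range of the 8 mg/kg animals. That array was on slide 3. The other Jund ratios there were -0.79 (control replicate 2), -0.74 (2 mg/kg replicate 5) and -0.71 (8 mg/kg replicate 3). The control and the 2 mg/kg animal were also the highest of their groups. Whether the slide bears on this value was not tested.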

How the results depend on the processing

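The 8 mg/kg differences of the members were refitted under 16 other settings and without each of 10 arrays in turn. Jun passed in 16 of 16 and 10 of 10 (2.03 to 2.37, limma adjusted p 5.93e-08 to 1.46e-04). Fosl2 passed in all of them as well, but its difference was 0.58 to 0.61 with median signals or the deposited table. Myc passed in 12 of 16 and 5 of 10: it was lost with normexp on median signals (0.85, limma adjusted p = 0.0503), the deposited table (0.84, 0.0566), no filter (0.0663) and without slide 3 (1.11, 0.122). Jund passed in 14 of 16 and 7 of 10, and was lost with no filter (0.0523) and with only the 2 groups compared (0.0553). Members called numbered 4 as reported, 2 with no filter and 2 to 4 without 1 array. The differences of 2 members that did not pass changed sign: Junb without slide 3 (0.062), and Fosl1 with normexp (-0.21), uncorrected median signals (-0.20), the deposited table (-0.19), slide as a fixed block (-0.042) or as a random block (-0.00396). Fosl1's slope was 0.00203 without the pancreas-marked arrays. Without 1 array, Junb ran from -0.22 to 0.088, Fosl1 from -0.25 to 0.20 and Junb's slope from -0.0302 to 0.00766.

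Calls are given as a percent of the genes tested. At 8 mg/kg this was 7.99%, and 5.08% with normexp, 5.09% uncorrected, 4.68% with the deposited table, 2.50% with no filter (37163 genes tested), 5.22% with only the 2 groups, 12.3% with slide as a random block and 5.80% to 6.72% without 1 array. With slide as a fixed block there were 2326 genes in place of 1590, of which 1548 were shared. Slopes passed for 10.4%, and for 6.77% with normexp, 6.52% with the deposited table, 3.78% with no filter (37163 genes tested), 15.2% with slide as a fixed block, 15.0% as a random block and 7.85% to 12.1% without 1 array. Slide as a block gave 0.322% in place of 0.0804% at 4 mg/kg, 0% in place of 0.0101% at 2 mg/kg, 0.342% in place of 0.206% between 8 and 4 mg/kg and 5.98% in place of 3.14% by F test. The replicate block, on numbers that do not pair the animals, gave 0.0503%, 0% and 0.126% in the first 3 of these and changed no call of a member at 8 mg/kg. The cause of these shifts was not tested. Signal over background limits Fos in all groups, and the no-filter fit tests more genes.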
